A study of Rattus norvegicus with 70 samples.

Results

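Messenger RNA of the hypothalamus was compared between 6 libraries from an ozone exposure and 6 from air, which are 12 of the 68 libraries analysed over 6 tissues. The ozone group was male Wistar-Kyoto rats, an inbred strain, exposed to 0.8 ppm ozone for 4 h, and the air group was male rats of the same strain exposed to air for 4 h. No age, genotype or drug is given for either group in the labels. The labels number the ozone libraries 13 to 18 and the air libraries 1, 2, 3, 4, 6 and 7, so any order of handling that the numbers follow cannot be told apart from ozone. The labels do not state that each library is a separate animal, and the p-values cover the variation among libraries only. All genes whose deposited values averaged 10 or more over the 12 libraries were taken, which kept 15217 of 19441 genes.

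The hypothalamus is the brain region that drives the pituitary, and through it the adrenal cortex, and it also governs feeding, fluid balance, body temperature and daily rhythm. Neurons of its paraventricular nucleus release corticotropin-releasing hormone, the pituitary answers with corticotropin, and the adrenal answers with glucocorticoid. The glucocorticoid receptor, Nr3c1, is a nuclear receptor that binds DNA when it holds hormone and turns on genes such as Fkbp5 and the metallothioneins in brain as in other tissues. Ozone itself reacts in the airway lining, and the series asks how transcripts of lung and of more distant tissues differ after exposure.

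Recovered depth ran from 10392945 to 13529752 reads in the ozone libraries and from 9162216 to 13339418 in the air libraries. The tissue label was checked against genes that mark hypothalamic neurons. Pmch, which encodes melanin-concentrating hormone, had a median deposited value of 4279 in ozone libraries and 4993 in air libraries. Hcrt, which encodes the orexins, had medians of 1195 in ozone libraries and 1503 in air libraries. The feeding-peptide genes Agrp and Npy were low, with means of 13.5 and 10.1 over the 12 libraries. Deposited values are read counts divided by 1 size factor per library, so they compare libraries and not genes of different length.

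Transcripts that belong to other organs were present in both groups. Alb, the liver's albumin gene, ranged from 34.1 to 15460.3 in ozone libraries and from 126 to 10075 in air libraries, and was highest in ozone 17, air 1 and air 6. Sftpc, a surfactant gene of the lung, reached 38.4 in ozone libraries and 566 in air libraries, with its highest value in air 1. Star, which starts steroid synthesis in the adrenal, reached 324 in ozone libraries and 456 in air libraries. Scaled by the marker's share of reads in the organ itself, liver RNA would make up between 0.00274% and 1.52% of an ozone library and between 0.0123% and 0.949% of an air library. The difference that admixture at these shares would give was computed for each gene from the libraries of the other 5 tissues. It was under 10% of the observed difference for 207 of the 215 genes called below, and the highest was 18.3%. Without the 3 libraries highest in Alb, a choice made after seeing the data, 149 genes were called, of which 87 rose and 62 fell, and 112 of the 215 genes were among them. Of the 88 called genes followed singly, 27 lost their call in that fit. The summed markers of fibroblasts, cells of the meninges and vessel walls, were lower in ozone 15, ozone 16 and ozone 18 than in every other library. Without these 3 libraries, a choice also made after seeing the data, 80 genes were called, of which 57 rose and 23 fell, and 63 of the 215 genes were among them. That fit has 3 ozone libraries against 6 air libraries, and 46 of the 88 genes lost their call in it.

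Of the 15217 genes, 215 passed an adjusted p of 0.05 in limma, which is 1.41%. In ozone hypothalamus 120 genes rose (0.789%) and 95 fell (0.624%), the shares against which each count of a list's members below is to be read. The median log2 fold change of all genes tested was -0.004. At least 2-fold changes were seen in 47 of the genes that rose and in 13 of those that fell. Every ozone library lay above every air library for 110 of the 120 genes that rose, against 1.17% of all genes tested, and below every air library for 81 of the 95 that fell, against 0.979%. Both counts follow in part from how the genes were called and are given as a description. In 12 further fits that each left out 1 library, 97 of the 215 genes were called every time, and 41 of the 60 with at least a 2-fold change.

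**Figure D1:**
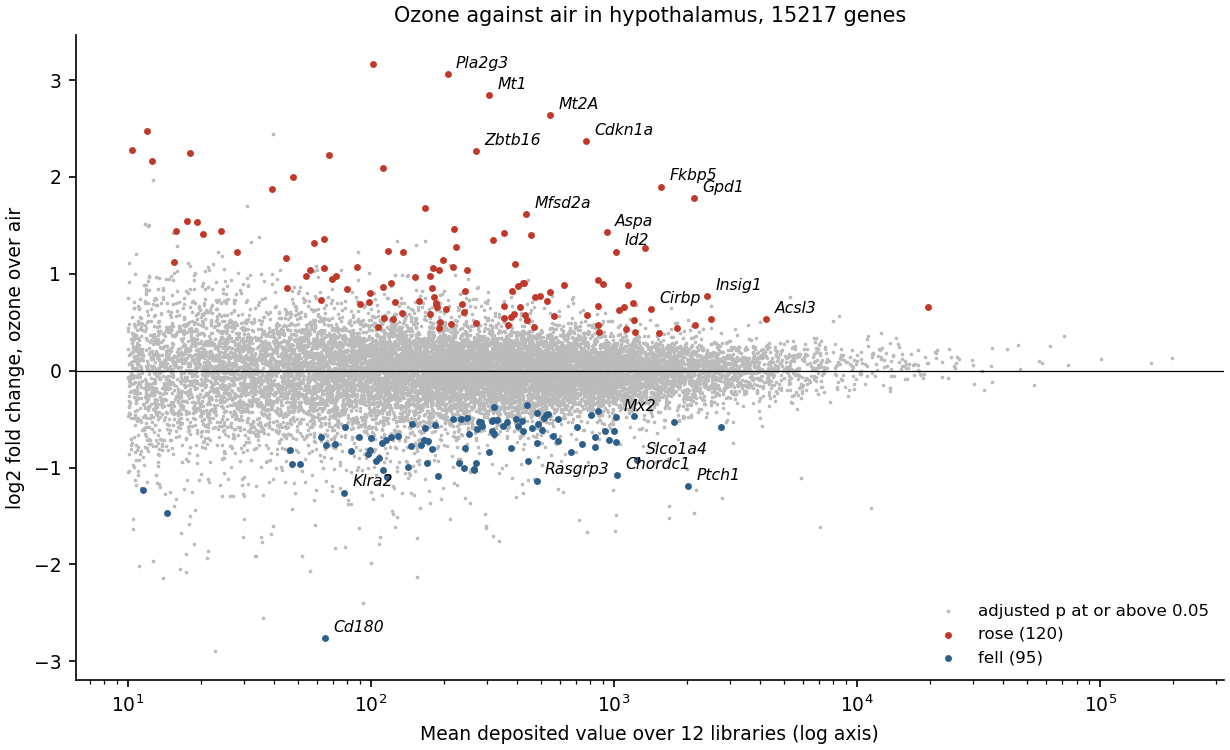
Log2 fold change of ozone over air against the mean deposited value (log axis) for 15217 genes of hypothalamus. Red points rose (120), blue points fell (95) and grey points did not pass an adjusted p of 0.05; the metallothioneins and Pla2g3 stand at the top and Cd180 at the bottom.

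Genes known to be induced through the glucocorticoid receptor held 9 of the 15 highest fold changes among called genes with a mean value of at least 50. A list of 44 such genes was drawn from general knowledge, but with earlier results of these data known. All 44 were tested, 16 rose and 0 fell, against 0.789% of all genes that rose. Because of how the list was chosen, these counts are given as a description. The list's median log2 fold change was 0.66, beside -0.004 for all genes, and 38 of 44 members were positive. The 16 were Mt2A, Gpd1, Cdkn1a, Arrdc2, Pnpla2, Fkbp5, Mt1, Mertk, Plin4, Map3k6, Nfkbia, Sesn1, Zbtb16, Rhob, Hif3a and Sgk1. Of them, 13 were called in all 12 fits that left out 1 library, and the exceptions were Hif3a, Rhob and Sgk1. Without the 3 libraries highest in Alb, 12 members of the list were called, and without the 3 lowest in fibroblast markers, 11.

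The metallothioneins, small cysteine-rich proteins that bind zinc and copper, changed by the largest factors on the list. Mt2A had a lowest value of 708, a median of 881 and a highest value of 1283 in ozone libraries, against 120.0, 148 and 188 in air libraries. The groups did not overlap, and the log2 fold change was 2.63 ± 0.15 (SE, limma adjusted p = 7.82e-07). Mt1 ran from 375 through a median of 495 to 855 in ozone libraries, against 36.1, 66 and 137 in air libraries, a log2 change of 2.85 ± 0.30 (limma adjusted p = 0.000169). Mt1m, a further metallothionein entry, gave 3.17 ± 0.36, with values from 108 to 289 in ozone libraries and from 7.75 to 45.3 in air libraries. Reads of the near-identical metallothionein copies may be divided between these entries, so the split among them is uncertain. Of 11 tested genes on a list of zinc handling, Mt1 and Mt2A were the 2 that rose, against 0.789% of all genes. On that list 0 fell, and its median was 0.25.

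Cell-cycle and chaperone genes of the same list followed. Cdkn1a, which encodes the cyclin-dependent kinase inhibitor p21, had a lowest value of 977, a median of 1153 and a highest of 1669.8 in ozone libraries, against 156, 245 and 383 in air libraries. Its log2 fold change was 2.37 ± 0.20 (limma adjusted p = 4.51e-05), with no overlap of groups. Fkbp5, a co-chaperone of Hsp90 that lowers the hormone affinity of the glucocorticoid receptor, had 1854, 2390.0 and 2957 in ozone libraries, against 497, 576 and 1169 in air libraries. The highest air value came from air 3 and still lay below the lowest ozone value, and the log2 fold change was 1.90 ± 0.20 (limma adjusted p = 0.000154). Zbtb16, a zinc-finger transcription factor, ran from 240.0 through 409 to 644 in ozone libraries, against 30.2, 95.9 and 180.0 in air libraries (2.27 ± 0.39, limma adjusted p = 0.0104). Its values spread more within each group than those of Mt2A, but the groups did not overlap. Zbtb16 did not pass without the 3 libraries lowest in fibroblast markers (limma adjusted p = 0.0646).

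**Figure D2:**
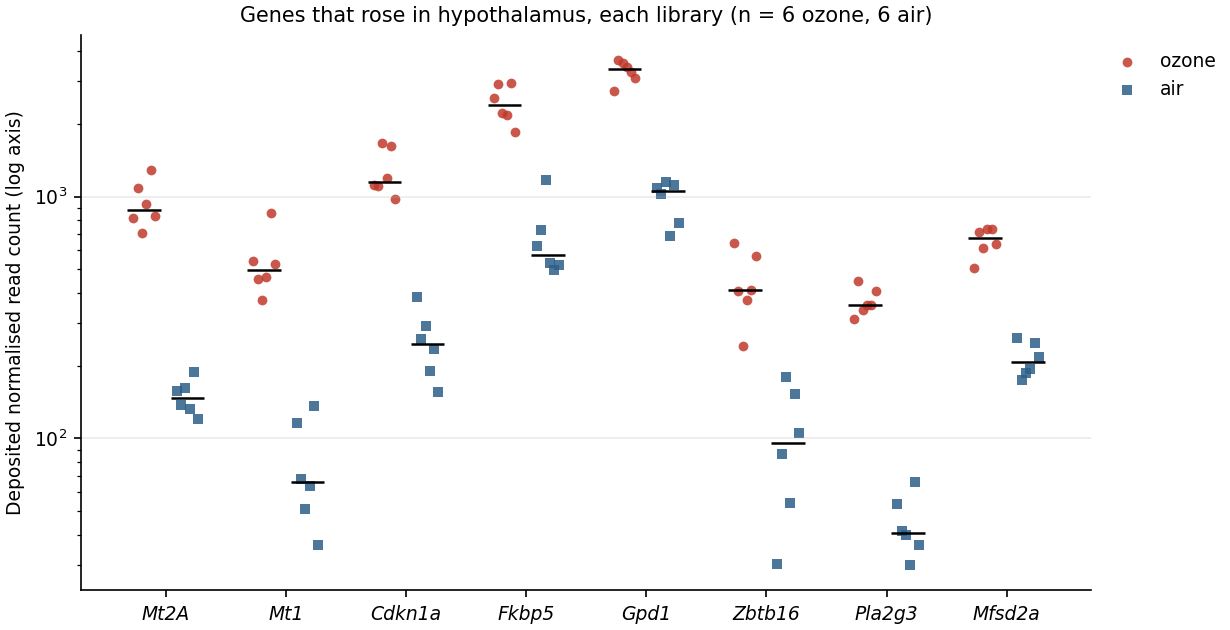
Deposited normalised read counts (log axis) of 8 genes that rose, with ozone libraries as red circles left of air libraries as blue squares and a black bar at each group's median. In all 8 genes the lowest ozone library lies above the highest air library; the nearest approach by ratio is in Zbtb16, at 240.0 in ozone and 180.0 in air.

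Other glucocorticoid-responsive genes moved less or did not pass. Sgk1, a kinase that regulates sodium channels, ranged from 1568 to 2089 in ozone libraries and from 422 to 1463 in air libraries, with a log2 change of 1.27 ± 0.28 (limma adjusted p = 0.0451). The groups did not overlap, but 9 of the 12 fits with 1 library fewer did not call it (adjusted p at most 0.110), nor did edgeR at 0.0849. Nfkbia, the inhibitor that holds NF-kappa-B in the cytoplasm, gave 0.81 ± 0.14 (limma adjusted p = 0.00959), with an adjusted p of 0.0594 without the 3 libraries highest in Alb. Mertk, a receptor kinase of phagocytic cells, ran from 739.8 to 893 in ozone libraries and from 355 to 506 in air libraries, a log2 fold change of 0.88 ± 0.10. Tsc22d3, which encodes the leucine-zipper protein GILZ, ranged from 2481 to 4003 in ozone libraries and from 1429 to 2872 in air libraries. It had a log2 fold change of 0.67 ± 0.17 and did not pass (limma adjusted p = 0.0785), but passed in DESeq2 at 0.0176. Per1, a clock gene that is also a receptor target, had 0.77 ± 0.18 and did not pass (0.0548), but passed in DESeq2 at 0.0115. Nor did limma call the transcription factor Klf9 at 0.68 ± 0.27 (0.261).

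The receptors themselves were measured well above the minimum. Nr3c1 ranged from 875 to 1999 in ozone libraries and from 1748 to 2678 in air libraries, so the groups overlapped, and its log2 fold change of -0.51 ± 0.20 did not pass (limma adjusted p = 0.255). Nr3c2, the mineralocorticoid receptor, had -0.40 ± 0.20 and did not pass (0.369). Of 12 tested genes on a list of corticosteroid receptors, their chaperones and steroid-converting enzymes, 0 passed in either direction and the median was -0.07.

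Promoters of 4 of these genes are shown because the genes rose together and their windows differ in the motifs they hold. Sequences are RefSeq's, build GRCr8, 5′ to 3′ on the gene's strand, from 250 bases before to 50 after the start, and capitals mark the motif named for each. In Mt1 and Mt2A the motif is TGCNCNC on either strand, a looser pattern than TGCRCNC (R is A or G), the core of the metal response element. The marked GAGAGCA in Mt1 and GAGGGCA in Mt2A match only the looser pattern. In Ciart, a clock-controlled gene described below, it is the E-box CACGTG. In Map3k6, a kinase on the glucocorticoid list, it is ACANNNTGT, the core spacing of a glucocorticoid response element.
Mt1 promoter, chr19:10832926-10833225, minus strand: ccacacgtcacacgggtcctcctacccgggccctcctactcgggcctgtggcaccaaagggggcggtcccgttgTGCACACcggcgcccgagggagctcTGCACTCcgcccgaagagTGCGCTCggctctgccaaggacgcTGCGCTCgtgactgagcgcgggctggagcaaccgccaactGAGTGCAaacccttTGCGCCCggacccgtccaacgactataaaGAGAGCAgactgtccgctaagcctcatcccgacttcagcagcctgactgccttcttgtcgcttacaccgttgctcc
Mt2A promoter, chr19:10838659-10838958, minus strand: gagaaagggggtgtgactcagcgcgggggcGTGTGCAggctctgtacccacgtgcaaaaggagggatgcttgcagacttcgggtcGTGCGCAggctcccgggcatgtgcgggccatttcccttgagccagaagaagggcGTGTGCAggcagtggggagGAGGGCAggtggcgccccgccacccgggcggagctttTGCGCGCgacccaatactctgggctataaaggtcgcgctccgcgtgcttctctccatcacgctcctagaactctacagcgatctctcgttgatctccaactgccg
Ciart promoter, chr2:186112197-186112496, minus strand: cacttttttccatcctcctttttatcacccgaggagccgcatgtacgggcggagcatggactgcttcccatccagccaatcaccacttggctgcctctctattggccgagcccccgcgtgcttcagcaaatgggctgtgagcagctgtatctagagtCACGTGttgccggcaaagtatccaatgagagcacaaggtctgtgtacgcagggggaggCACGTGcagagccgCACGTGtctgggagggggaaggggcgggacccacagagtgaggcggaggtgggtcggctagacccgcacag
Map3k6 promoter, chr5:150723995-150724294, plus strand: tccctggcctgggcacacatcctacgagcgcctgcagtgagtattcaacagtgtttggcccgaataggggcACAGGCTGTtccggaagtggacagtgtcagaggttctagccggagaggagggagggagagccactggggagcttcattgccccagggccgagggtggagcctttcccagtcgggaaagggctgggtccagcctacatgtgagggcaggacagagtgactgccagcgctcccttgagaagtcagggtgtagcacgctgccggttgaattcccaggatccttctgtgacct

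The looser metal response pattern TGCNCNC stood at 7 positions in the Mt1 window and at 5 in that of Mt2A. Of the 33469 windows in the table, 49.6% held at least 1, 0.669% held at least 5 and 0.108% held at least 7. The E-box stood at 3 positions in the Ciart window, where 6.42% of all windows held at least 1 and 0.0568% held at least 3. The glucocorticoid core was in 6.86% of all windows. Among the 14 of 16 called glucocorticoid-list genes with a window in the table, it was in 1, that of Map3k6. These matches describe the letters of a short window, and a window without one says nothing about binding elsewhere. Map3k6 itself had a lowest value of 32.8, a median of 56.3 and a highest value of 116 in ozone libraries, against 10.7, 15.3 and 20.9 in air libraries, a log2 change of 1.88 ± 0.30 (limma adjusted p = 0.00624).

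Several genes of glycerol, lipid-droplet and fatty acid metabolism rose in ozone hypothalamus. Gpd1, the cytosolic glycerol-3-phosphate dehydrogenase that links glycolysis to glycerolipid synthesis, had 2732, 3351 and 3667 as its lowest, median and highest value in ozone libraries, against 686, 1053 and 1149 in air libraries. Its log2 fold change was 1.78 ± 0.14 (limma adjusted p = 2.26e-05), and it stayed called in all 12 fits with 1 library left out. Plin4 and Plin5, which coat lipid droplets, gave 2.09 ± 0.27 and 1.55 ± 0.30, and neither had overlapping groups. Plin4 ranged from 111 to 258 in ozone libraries and from 17.1 to 53.1 in air libraries. Pnpla2, the lipase that begins triglyceride breakdown, gave 1.40 ± 0.14, with values from 517 to 781 in ozone libraries and from 204 to 346 in air libraries. The entry LOC100911615 had nearly the same log2 fold change as Pnpla2 in every tissue, 1.42 here, so reads may be shared between both entries and the level of each is uncertain.

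A few genes of peroxisomes and acyl-CoA metabolism that rose are given next, with a mitochondrial carrier of amino acids. They were picked because they rose, from no list, and stand for no group. Ehhadh, a bifunctional enzyme of peroxisomal beta-oxidation, had 259.9, 286 and 505 in ozone libraries, against 90.7, 127 and 187 in air libraries (log2 fold change 1.28 ± 0.19, limma adjusted p = 0.00426). Pex11a, which promotes peroxisome division, ran from 415 to 648 in ozone libraries and from 224 to 311 in air libraries (1.10 ± 0.12). Acsl3, an acyl-CoA synthetase of lipid droplets, ran from 4208 to 5510.3 in ozone libraries and from 3212 to 3918 in air libraries (0.53 ± 0.09). Slc25a13, the mitochondrial aspartate-glutamate carrier, rose by 1.22 ± 0.19 on the log2 scale. On a list of energy substrates, 1 of 37 tested genes rose, Plin4, against 0.789% of all genes, 0 fell and the median was 0.03.

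Sterol regulators and a brain lipid transporter rose as well. Insig1, which holds the sterol-sensing complex in the endoplasmic reticulum, had 2769.8, 3058 and 3259 in ozone libraries, against 1457, 1807 and 2041 in air libraries (0.77 ± 0.09, limma adjusted p = 0.000604). Scap, the escort protein of that complex, rose by 0.39 ± 0.08, but its call was lost in 8 of the 12 fits with 1 library left out. Insig1 and Scap were the 2 of 34 tested cholesterol genes that rose, against 0.789% of all genes, 0 fell and the list's median was 0.13. Mfsd2a, the transporter of lysophospholipids carrying omega-3 fatty acids at the blood-brain barrier, had 508, 677 and 735 in ozone libraries, against 174, 206 and 261 in air libraries. Its log2 fold change was 1.62 ± 0.13 (limma adjusted p = 2.52e-05). Slc19a3, a thiamine transporter, ranged from 66.9 to 84.9 in ozone libraries and from 10.1 to 29.6 in air libraries, a log2 fold change of 2.00 ± 0.27.

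Pla2g3, which encodes a secreted phospholipase A2, shared the lowest adjusted p with Mt2A. Its values were 310.5, 355 and 448 in ozone libraries, against 30, 40.8 and 66.4 in air libraries, a log2 change of 3.06 ± 0.18 (limma adjusted p = 7.82e-07). The lowest ozone library lay far above the highest air library. Tnfrsf11a, the receptor RANK that takes part in fever and bone turnover, ran from 231 to 283 in ozone libraries and from 65.4 to 98 in air libraries (1.68 ± 0.14, limma adjusted p = 2.52e-05). Tnfrsf11b, the soluble decoy for the same ligand, fell, with values from 114 to 252 in ozone libraries and from 217 to 382 in air libraries (limma adjusted p = 0.0247). The Tnfrsf11b groups overlapped, and its call was lost in 6 of the 12 fits with 1 library left out.

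Glial genes gave single calls within lists that otherwise did not pass. Aspa, the oligodendrocyte enzyme that splits N-acetylaspartate, had 1119, 1301 and 1675 in ozone libraries, against 422, 460.2 and 698 in air libraries (1.43 ± 0.14, limma adjusted p = 0.000139). Olig1, a transcription factor of the same cells, rose by 0.47 ± 0.10, with its call lost in 6 of the 12 fits. Of 25 tested oligodendrocyte markers, those 2 rose, against 0.789% of all genes, 0 fell and the median was 0.10, with Mbp, a major myelin protein, at 0.10. Erbb3, a neuregulin receptor, fell by 0.75 ± 0.13 on the log2 scale, with values from 317 to 421 in ozone libraries and from 424 to 724 in air libraries. In bulk tissue, fewer cells of a type and less RNA per cell cannot be told apart. Of 19 tested astrocyte markers 0 passed, with a median of 0.22. Gfap, the astrocyte filament, ranged from 7258 to 11124 in ozone libraries and from 5303 to 8083 in air libraries and did not pass (0.51 ± 0.12, limma adjusted p = 0.0636), but it passed in DESeq2 at 0.00465.

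Clock and temperature genes moved in part. Ciart, a repressor of the clock's activators, had 73.5, 82.8 and 93.4 in ozone libraries, against 26.1, 32.7 and 44.3 in air libraries (1.31 ± 0.15, limma adjusted p = 0.000485). Usp2, a clock-controlled ubiquitin protease, ran from 184 to 283 in ozone libraries and from 87.6 to 168 in air libraries (0.98 ± 0.16). Those were the 2 of 26 tested clock genes that rose, against 0.789% of all genes, 0 fell and the list's median was 0.03. Rbm3, an RNA-binding protein induced by mild cold, had 1323, 1447 and 1775 in ozone libraries, against 556, 834 and 1030.3 in air libraries (0.88 ± 0.14, limma adjusted p = 0.00438). Cirbp, its cold-inducible relative, ran from 1464 to 2059 in ozone libraries and from 818 to 1444 in air libraries (0.64 ± 0.13, limma adjusted p = 0.0337). Its call was lost in 8 of the 12 fits with 1 library left out. Without the 3 libraries lowest in fibroblast markers neither Rbm3 nor Cirbp passed (limma adjusted p = 0.0527 and 0.108).

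Heat-shock genes moved in either direction or did not pass. Cryab, a small heat-shock protein, ran from 878 to 1373 in ozone libraries and from 423 to 866 in air libraries (0.94 ± 0.17, limma adjusted p = 0.0145). Chordc1, a co-chaperone of Hsp90, ran from 411 to 1034 in ozone libraries and from 1042 to 2094 in air libraries (-1.07 ± 0.21, limma adjusted p = 0.0205). Its call was lost without air 2, ozone 14 or ozone 16. Without the 3 libraries lowest in fibroblast markers Cryab did not pass (limma adjusted p = 0.100), and Chordc1 stayed called (0.0245). Hspa1b, the inducible Hsp70, had a median of 12.2 in ozone libraries and 19.9 in air libraries, with 441 in air 3, and did not pass. Of 29 tested heat and cold genes 3 rose, Rbm3, Cryab and Cirbp, and 1 fell, Chordc1, against 0.789% of all genes that rose and 0.624% that fell, with a median of -0.02.

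Among p53 targets 4 of 21 tested genes rose, Cdkn1a, Gadd45g, Sesn1 and Aen, and 0 fell, against 0.789% of all genes that rose, with a median of 0.09. Aen lost its call in 10 of the 12 fits with 1 library left out and without the 3 libraries highest in Alb (limma adjusted p = 0.131). Cdkn1a and Sesn1 are also on the glucocorticoid list, so the lists are not separate evidence. Gadd45g, a growth-arrest gene, ranged from 117 to 240.5 in ozone libraries and from 55.5 to 102 in air libraries (1.24 ± 0.19). Hif3a, a hypoxia-inducible factor subunit, ranged from 61.6 to 145 in ozone libraries and from 4.03 to 47.8 in air libraries (2.23 ± 0.48, limma adjusted p = 0.0390), but it lost its call in 7 of the 12 fits. It was the 1 hypoxia gene of 32 tested that passed, against 0.789% of all genes that rose, and that list's median was 0.06. Of 35 tested ribosomal protein genes 1 rose, Rpl28, against 0.789% of all genes, 0 fell, 34 were positive and the median was 0.43. The Rpl28 groups overlapped, and its call was lost in 10 of the 12 fits with 1 library left out.

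Cd180 showed the largest fall among the called genes. It encodes a Toll-like receptor relative of B cells and macrophages that restrains Toll-like receptor 4. Values were 9.1, 15.3 and 25.1 in ozone libraries, against 63.5, 109 and 151 in air libraries, a log2 change of -2.76 ± 0.28 (limma adjusted p = 0.000139). The highest ozone library lay below the lowest air library, and the call held in all 12 fits. Further genes typical of white blood cells and microglia fell, chosen here after their values were seen. Dock8, a guanine exchange factor of immune cells, ran from 109 to 185 in ozone libraries and from 223 to 364 in air libraries (-0.95 ± 0.15, limma adjusted p = 0.00645). Bin2 gave -0.96 ± 0.18, Plek -0.96 ± 0.19 and Pik3ap1 -1.09 ± 0.23, and these were called in 10, 7 and 4 of the 12 fits with 1 library left out. Tlr2, a receptor for bacterial lipoproteins, gave -0.93 ± 0.20 and lost its call in 9 of the 12 fits. Without the 3 libraries lowest in fibroblast markers Cd180 stayed called at -2.82, while Dock8, Bin2, Plek, Pik3ap1 and Tlr2 did not pass (limma adjusted p between 0.0696 and 0.155).

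The wider microglial list did not pass. Of 22 tested markers 0 passed in either direction in limma, 8 were positive, 14 were negative and the median was -0.21. DESeq2 called 4 of them, all lower, against 1.74% of all genes that fell by that tool. The list's median was 0.41 without the 3 libraries lowest in fibroblast markers, with 8 negative and 1 called lower. Their summed value ran from 4989.8 to 8949 in ozone libraries and from 5889 to 8784 in air libraries. Log2 fold changes in the list ran from -1.51 for Gpr34, a lipid receptor of microglia (limma adjusted p = 0.0537), to 0.86 for C1qb, a complement subunit (0.167). Il1b, the cytokine interleukin-1 beta, ranged from 0 to 3.03 in ozone libraries and from 0 to 2.61 in air libraries, below the mean value of 10 needed for a test. Of 24 tested inflammatory genes 1 rose, Nfkbia, and 2 fell, Cxcl12 and Tlr2, against 0.789% of all genes that rose and 0.624% that fell, with a median of -0.17.

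Among 42 tested interferon-stimulated genes, 0 rose and 3 fell, Irgm, Mx2 and Gbp5, against 0.624% of all genes that fell. The median was -0.46 and 40 of 42 members were negative. Irgm, a GTPase against intracellular pathogens, ran from 122 to 142 in ozone libraries and from 189 to 253 in air libraries (-0.73 ± 0.10, limma adjusted p = 0.00204). Mx2, an antiviral GTPase, ran from 726 to 978 in ozone libraries and from 1098 to 1268 in air libraries (-0.48 ± 0.09, limma adjusted p = 0.0218). Without the 3 libraries highest in Alb, Mx2 and Gbp5 did not pass (limma adjusted p = 0.0855 and 0.0895). Without the 3 lowest in fibroblast markers none of the 3 passed (limma adjusted p = 0.0574 for Irgm, 0.114 for Mx2 and 0.179 for Gbp5), with a list median of -0.31. DESeq2 called 11 members of the list, all lower, against 1.74% of all genes that fell by that tool. RT1-N3, a class I histocompatibility gene, was the 1 of 26 tested histocompatibility and antigen-processing genes that passed (-0.69 ± 0.13), against 0.624% of all genes that fell.

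**Figure D3:**
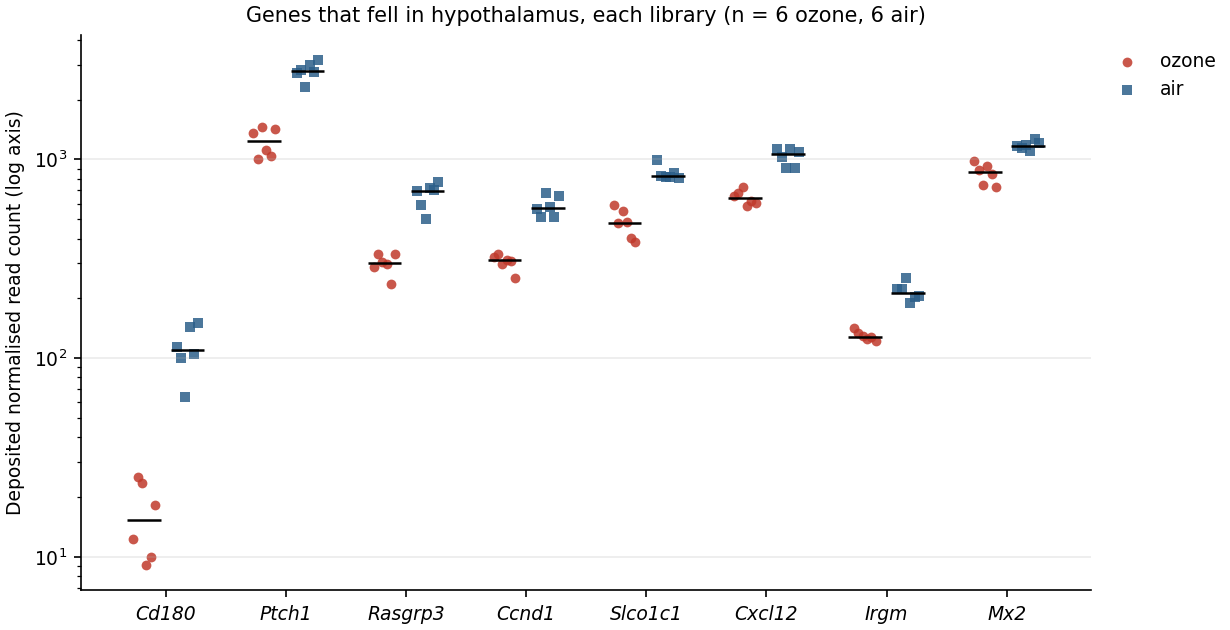
Deposited normalised read counts (log axis) of 8 genes that fell, with ozone libraries as red circles left of air libraries as blue squares and a black bar at each group's median. In all 8 genes the highest ozone library lies below the lowest air library; for Cd180 these are 25.1 in ozone and 63.5 in air.

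Several genes of the brain vasculature fell, while Mfsd2a rose. Slco1c1, which carries thyroxine across the blood-brain barrier, had 384, 481 and 592 in ozone libraries, against 805, 824 and 989.7 in air libraries (-0.83 ± 0.12, limma adjusted p = 0.00211). Slco1a4, an organic anion transporter of the same barrier, ran from 620.5 to 1111 in ozone libraries and from 1133 to 2065 in air libraries (-0.92 ± 0.16, limma adjusted p = 0.0116). Of 28 tested endothelial markers 1 rose and 2 fell, against 0.789% of all genes that rose and 0.624% that fell, with a median of -0.33 and 22 negative. DESeq2 called 7 of them, against 3.62% of all genes. Slco1a4 did not pass without the 3 libraries lowest in fibroblast markers (limma adjusted p = 0.0843), while Slco1c1 stayed called and the list's median was -0.12. Podxl, a sialomucin of the vessel lining, fell by 0.75 ± 0.11 on the log2 scale, and Cxcl12, a chemokine of vessels and meninges, by 0.68 ± 0.09. Cxcl12 ranged from 581 to 728 in ozone libraries and from 908 to 1131 in air libraries. Nrp1, a co-receptor for vascular growth factor, fell by 0.58 ± 0.11, and its predicted share from other organs was 11.0% of the difference. Nrp1 was called in 9 of the 12 fits with 1 library left out. It did not pass without the 3 libraries lowest in fibroblast markers (limma adjusted p = 0.0742).

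Markers of the cells around vessels and in the meninges divided the ozone libraries and did not pass. Of 21 tested fibroblast markers 0 passed, all 21 were negative and the median was -1.01. Their summed value had a lowest, median and highest value of 4659, 18291 and 49210.2 in ozone libraries, against 16296, 34367 and 45753 in air libraries. The sums were 39848, 27887 and 49210.2 in ozone 13, ozone 14 and ozone 17, within or above the air values, and 8695, 4659 and 5305 in ozone 15, ozone 16 and ozone 18, below every air library. Without the low 3 the list's median was 0.37, with 4 members negative. That shift follows from leaving out libraries for their low values of these same markers, and is given as a description. Col1a1, a fibrillar collagen, ranged from 157 to 3821 in ozone libraries and from 1118 to 2865 in air libraries (-1.40 ± 0.74, limma adjusted p = 0.409). Of 15 tested mural-cell markers 0 passed, 14 were negative and the median was -0.39, with summed values from 3742 to 28391 in ozone libraries and from 8819 to 20685 in air libraries. Their sums were lowest in the same 3 ozone libraries, and without these the median was 0.10, a shift that follows from the choice in the same way. No marker of either list was at 0 throughout. Podxl did not pass without these 3 libraries (limma adjusted p = 0.0653), and Cxcl12 stayed called (0.0340).

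Ptch1 was among the most abundant genes that fell. It encodes the hedgehog receptor, which is itself a target of the pathway. Its values were 1004, 1235 and 1459 in ozone libraries, against 2321, 2791 and 3168 in air libraries (-1.19 ± 0.12, limma adjusted p = 0.000122), and the call held in all 12 fits. Other hedgehog genes named here, looked at after this value was seen, did not pass. Gli1, the pathway's transcription factor and target, ran from 74.6 to 119 in ozone libraries and from 114 to 168 in air libraries (-0.44 ± 0.15, limma adjusted p = 0.192). Hhip, a secreted inhibitor, gave -0.57 ± 0.31 (limma adjusted p = 0.422). Smo, the signal transducer, had -0.07 ± 0.14 and Gli2, Gli3, Gas1, Cdon and Boc also did not pass.

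Other developmental signals were split. Nrarp, a feedback inhibitor and target of Notch, ran from 146 to 214 in ozone libraries and from 262 to 405 in air libraries (-0.95 ± 0.14, limma adjusted p = 0.00258). Lfng, which modifies Notch receptors with sugar, ran from 185 to 374 in ozone libraries and from 83.3 to 156 in air libraries (1.04 ± 0.20, limma adjusted p = 0.0195). Id2, an inhibitor of helix-loop-helix factors, had 1119, 1439 and 1840.3 in ozone libraries, against 375, 637 and 709.8 in air libraries (1.23 ± 0.17, limma adjusted p = 0.00190). Among Wnt genes, the ligand Wnt7a fell by 0.76 ± 0.12 and the receptor Fzd10 by 0.81 ± 0.18, while the receptor Fzd9 rose by 0.91 ± 0.11. The Fzd10 call was lost in 10 of the 12 fits with 1 library left out. Ccnd1, the G1 cyclin D1, ran from 253 to 335 in ozone libraries and from 514 to 682 in air libraries (-0.93 ± 0.10, limma adjusted p = 0.000311). Rasgrp3, a Ras activator, ran from 237 to 335 in ozone libraries and from 502 to 770.1 in air libraries (-1.13 ± 0.12, limma adjusted p = 0.000230).

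Neuropeptides of the stress axis did not pass. Of 31 tested genes on that list, 0 passed in either direction and the median was 0.15. Crh, the corticotropin-releasing hormone, ranged from 20.7 to 104 in ozone libraries and from 10.3 to 40.7 in air libraries, and its log2 fold change of 0.74 ± 0.43 did not pass (limma adjusted p = 0.450). Avp, vasopressin, had 0.36 ± 0.26, Oxt, oxytocin, 0.50 ± 0.23, Trh, thyrotropin-releasing hormone, 0.15 ± 0.46 and Sst, somatostatin, 0.42 ± 0.21. Their adjusted p-values in limma ran from 0.331 to 0.904. Pomc, the precursor of melanocortins, ran from 214 to 522 in ozone libraries and from 164 to 259 in air libraries (0.66 ± 0.21, limma adjusted p = 0.163), and it passed in DESeq2 at 0.0467 and in limma without the 3 libraries lowest in fibroblast markers (1.08, limma adjusted p = 0.0330). Pituitary transcripts varied between libraries. Prl ranged from 0 to 237 in ozone libraries and from 0 to 12.1 in air libraries. Their part in the Pomc value was not tested.

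Feeding and arousal genes gave 2 calls of 34 tested, both lower, against 0.624% of all genes that fell, with a median of -0.07. Hcrtr2, an orexin receptor, ran from 46.3 to 115 in ozone libraries and from 99.7 to 163 in air libraries (-0.90 ± 0.20, limma adjusted p = 0.0442). Bdnf, a neurotrophin that limits feeding, ran from 126 to 159.5 in ozone libraries and from 184 to 271 in air libraries (-0.56 ± 0.12, limma adjusted p = 0.0409). Each lost its call in 10 of the 12 fits that left out 1 library. Cartpt, Hcrt and Pmch did not pass. Agrp and Npy, with means of 13.5 and 10.1, lay near the minimum of 10 and did not pass either, so a change there could be missed. Of 40 tested immediate-early genes 1 rose, Gadd45g, and 1 fell, Bdnf, against 0.789% of all genes that rose and 0.624% that fell. Fos, a marker of recent neuronal activity, ran from 71.1 to 124 in ozone libraries and from 102 to 236 in air libraries and did not pass (-0.79 ± 0.21, limma adjusted p = 0.0851). It passed in DESeq2 at 0.0142. Of 18 tested general neuron markers 0 passed and the median was 0.04. The antioxidant list had 1 call of 34 tested, Slc40a1, the iron exporter, which fell, against 0.624% of all genes. Slc40a1 was called in 8 of the 12 fits with 1 library left out. It did not pass without the 3 libraries highest in Alb (limma adjusted p = 0.0698) or the 3 lowest in fibroblast markers (0.127). Hmox1, heme oxygenase, had -0.06 ± 0.20.

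**Figure D4:**
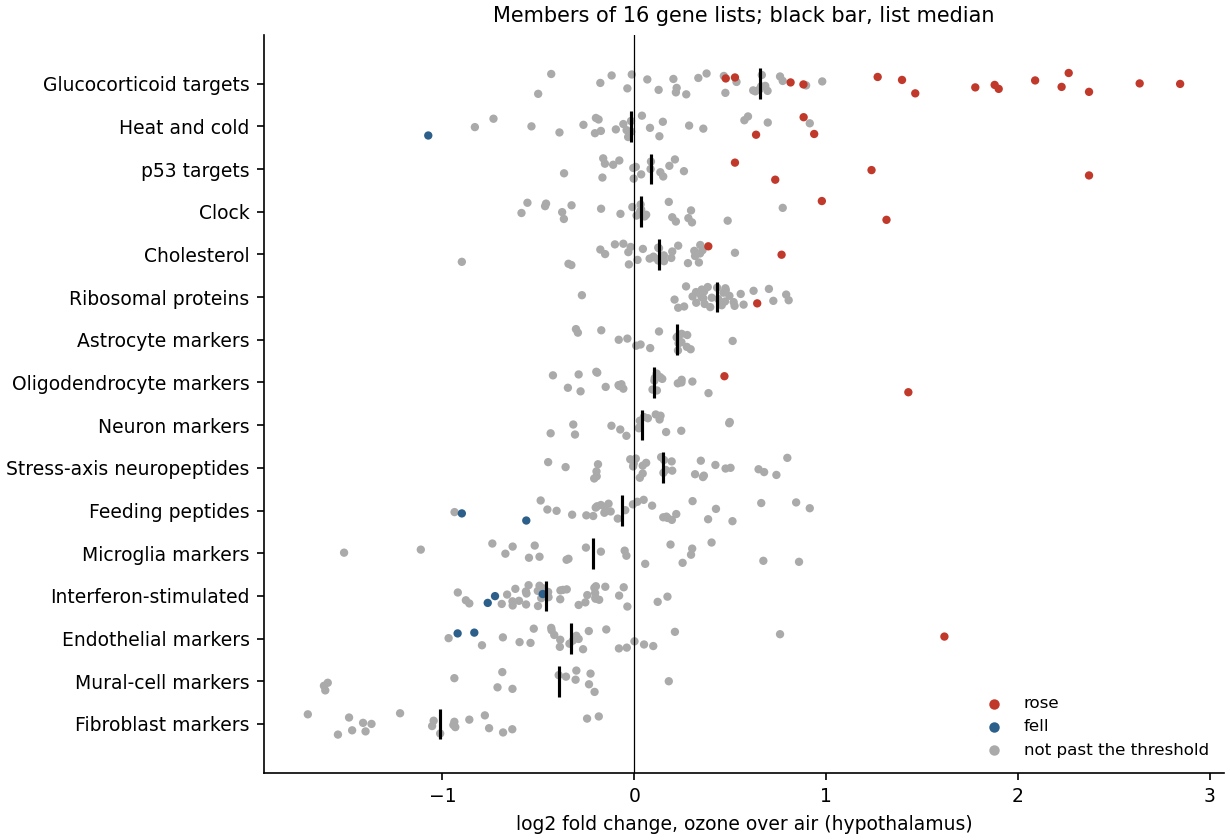
Log2 fold change of ozone over air in hypothalamus for each tested member of 16 gene lists, with a black bar at the list's median; red points rose, blue points fell and grey points did not pass. The glucocorticoid list has 16 red points and a median of 0.66, the fibroblast list has none past the threshold and a median of -1.01.

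The ozone effect in hypothalamus was set against the mean effect in lung, liver, adrenal gland, adipose tissue and muscle, over 11111 genes tested in all 6 tissues. The difference passed for 198 genes (1.78%). Of the 215 hypothalamic genes, 166 could be tested and 27 passed, of which 26 had a difference in the direction of the hypothalamic change. That direction is in large part fixed by choosing genes called in hypothalamus, and the count is given as a description. Gpd1 differed by 1.38 ± 0.32 (limma adjusted p = 0.00885), with log2 fold changes of 1.78 in hypothalamus, -0.07 in lung, 0.41 in liver, 0.02 in adrenal, 0.42 in adipose and 1.22 in muscle. Ehhadh differed by 1.33 ± 0.24, at 1.28 in hypothalamus and between -0.62 and 0.24 elsewhere. Id2 differed by 1.40 ± 0.27, Lfng by 1.45 ± 0.24 and Cnr2, a cannabinoid receptor, by 1.12 ± 0.18. Among genes that fell, Ptch1 differed by -1.01 ± 0.15 and Rasgrp3 by -1.15 ± 0.17 (limma adjusted p = 1.95e-05 for each). Ptch1 had -0.31 in lung, -0.20 in liver, 0.37 in adrenal, -0.13 in adipose and -0.64 in muscle. It also fell in lung and muscle (limma adjusted p = 0.0343 and 0.00436). Rasgrp3 had -0.33, 0.55, -0.165, -0.57 and 0.58 in the same order. It fell in lung and rose in muscle (limma adjusted p = 0.0110 and 0.00487), so its mean joins opposite directions. Adamts4, a matrix protease, differed by -2.30 ± 0.38. It fell in hypothalamus by 0.65 on the log2 scale and had log2 fold changes of 3.40 in lung and 3.66 in adrenal. Cd180 differed by -1.54 ± 0.30 and was also negative in the other 5 tissues, between -2.30 and -0.27. Slc25a33 was the 1 gene of the 27 whose difference ran opposite to its hypothalamic change, with 0.63 in hypothalamus and a mean of 1.57 elsewhere.

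Of the 16 called glucocorticoid targets, 15 could be tested for the difference and 1 passed, Gpd1. Among the rest it was 0.07 for Mt2A, 0.75 for Mt1, -0.12 for Cdkn1a, -0.29 for Fkbp5 and 0.51 for Zbtb16. Limma's adjusted p for these ran from 0.42 to 0.97. Sgk1 differed by 0.83 ± 0.25 and did not pass (limma adjusted p = 0.0617). For Mt2A the mean joins opposite directions, with 4.64 in lung, 1.11 in liver, -0.92 in adrenal, 4.56 in adipose and 3.45 in muscle. In adrenal Mt2A and Mt1m fell (limma adjusted p = 0.0298 and 0.0374), and Mt1 had -0.82 and did not pass (0.0756). Aspa rose in hypothalamus by 1.43 and had 1.44 in lung, 2.28 in liver, 0.41 in adrenal, 1.82 in adipose and 2.71 in muscle. Pla2g3, Tnfrsf11a and Mfsd2a were below the minimum value in at least 1 other tissue and were not tested for this difference. Calls in other tissues are given next as shares of all 215 hypothalamic genes, tested there or not. The share of a tissue's tested genes that were called, given last, is to be read beside the count called of those tested. In lung 192 were tested and 107 called, 104 in the same direction. That is 49.8% of the 215 and 4.08% of the 2623 lung calls, where 17.7% of tested genes were called. In liver 176 were tested and 62 called, 57 in the same direction. That is 28.8% of the 215 and 4.31% of the liver calls, where 11.5% of tested genes were called. In adrenal 188 were tested and 59 called, 47 in the same direction. That is 27.4% of the 215 and 2.26% of the adrenal calls, where 18.6% of tested genes were called. In adipose tissue 187 were tested and 55 called, 52 in the same direction. That is 25.6% of the 215 and 5.27% of the adipose calls, where 7.32% of tested genes were called. In muscle 185 were tested and 118 called, 107 in the same direction. That is 54.9% of the 215 and 2.07% of the muscle calls, where 43.7% of tested genes were called.

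**Figure D5:**
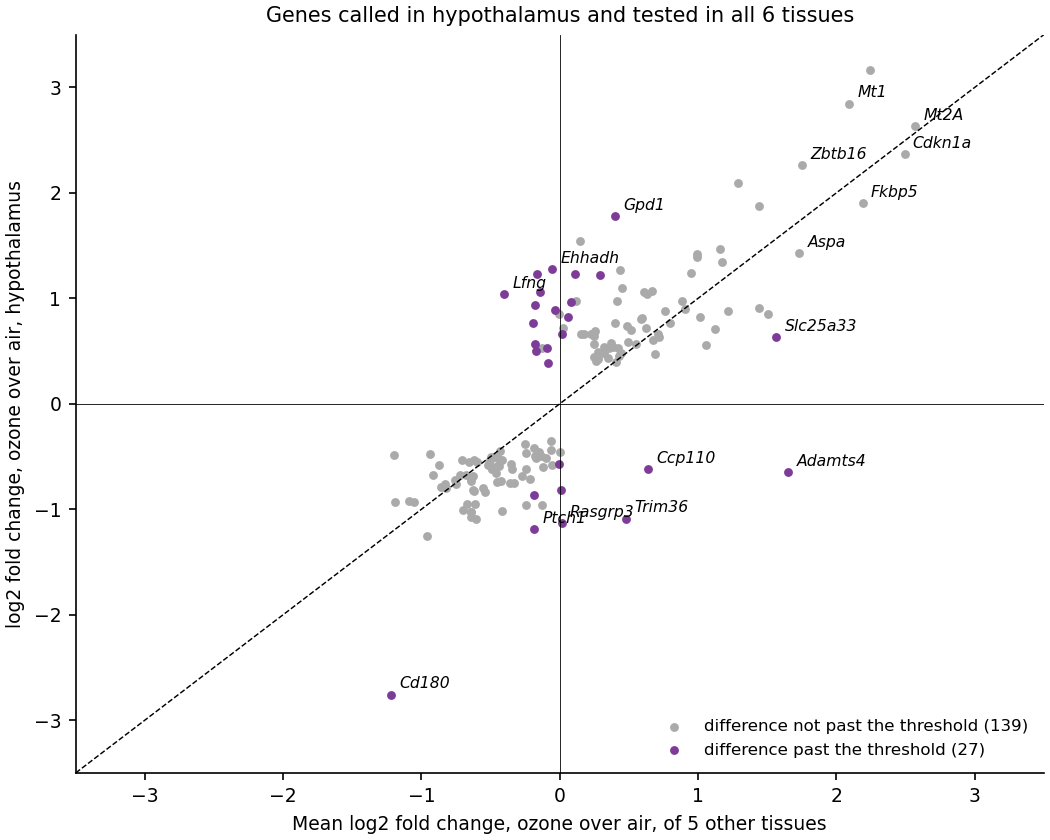
Log2 fold change of ozone over air in hypothalamus against the mean of 5 other tissues for the 166 genes called in hypothalamus and tested in all 6 tissues; the dashed line marks equal effects. Purple points (27) passed the test of the difference and grey points (139) did not, among them Mt2A, Cdkn1a and Fkbp5 near the line. The mean for Mt2A joins values from -0.92 in adrenal to 4.64 in lung.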

How the data were processed

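RNA-seq of hypothalamus was read from the table of gene values that the authors deposited for this tissue. Its values are a signal made of read counts divided by 1 size factor per library, as worked out from the deposited values: dividing each library by its own step gave whole reads for 100% of values, within 0.01, and those reads served the count tests. Partek, DESeq2 and rn6 stand in the submitters' processing notes. How reads were aligned, counted and assigned to strands is not stated there, which leaves paralogs and overlapping genes uncertain. Per the labels' protocols, RNA was extracted with a Zymo kit, selected for messenger RNA and sequenced on a NextSeq instrument. The 24 rows with a date for a symbol were left out.

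The main test was limma 3.58.1 (R 4.3.3) on log2(value + 1) for genes with a mean of at least 10, with trend and robust moderation and Benjamini-Hochberg adjustment, on the 12 hypothalamus libraries alone. Fold changes are on that scale and understate changes of low genes. "Rose" and "fell" mean adjusted p under 0.05. Errors are standard errors of the fit. Differences from other tissues came from 1 limma fit over all 6 tables, which allows each tissue its own level and pools the spread. Alternatives were edgeR 4.0.16 (quasi-likelihood) and DESeq2 1.42.0 on recovered reads, other pseudocounts, filters and scalings, array weights and leaving out libraries. The scripts were tested on simulated data. Genes were named by a rule: the 15 highest and 15 lowest fold changes among called genes with a mean of at least 50, up to 4 members of each of 47 lists with the lowest adjusted p, and a set panel. All other genes named were chosen after their values were seen. The comparison, lists and panel were chosen with earlier results of these data known.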

Additional observations from a re-analysis of the deposited data

Results flagged for a closer look

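Within a group of 6 libraries, a library far from the other 5 was found in 19 of 254 groups examined, where chance gives about 5%. Among genes that rose or fell, Fkbp5 was 1169 in air 3 (other air libraries 497 to 728), Plin4 17.1 in air 1, Mt1 855 in ozone 17 (other ozone libraries 375 to 539), Slco1c1 989.7 in air 1, Hr 432 in air 6, Rpl28 221 in air 6, Fzd10 206 in ozone 15, Ehhadh 505 in ozone 15, Acsl3 3918 in air 7, Dbi 524 in air 6, Cnr2 63.6 in ozone 14 and Id2 375 in air 3. Among the rest, Avp was 1938 in ozone 13, Npy 24.5 in air 7, Hspa1b 441 in air 3 (other air libraries 0 to 39.7) and Ttr, a choroid plexus gene that liver also expresses, 833 in ozone 17. Markers of other organs stood apart too, with Alb at 15460.3 in ozone 17, Star at 456 in air 2 and Prl at 12.1 in air 1.

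The ozone effect in hypothalamus differed from the mean effect in 5 other tissues for 14 of the named genes, by limma's test of that difference. On the log2 scale it was higher by 1.38 for Gpd1, 1.12 for Cryab, 0.47 for Scap, 1.33 for Ehhadh, 0.62 for Acsl3, 1.12 for Cnr2, 1.45 for Lfng, 1.40 for Id2 and 0.93 for Slc25a13. It was -1.54 for Cd180, -1.01 for Ptch1, -1.15 for Rasgrp3, -1.57 for Trim36 and -2.30 for Adamts4. Slc25a13 was higher than the mean only, with log2 fold changes of 1.22 in hypothalamus and 1.28 in adipose tissue. It had 0.45 in lung, 0.03 in liver, -0.26 in adrenal and -0.03 in muscle. Trim36 had log2 fold changes of -1.09 in hypothalamus, 2.65 in liver and 1.70 in adrenal, and Cryab 0.94 in hypothalamus and -1.84 in muscle. The hypothalamic call of Trim36 held in 2 of the 12 fits with 1 library left out. It was lost without the 3 libraries highest in Alb (limma adjusted p = 0.0840) and without the 3 lowest in fibroblast markers (0.0843).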

How the results depend on the processing

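The 215 calls (120 rose, 95 fell) moved with the variance model. Array weights gave 723 (402 rose, 321 fell) and DESeq2 551 (286 rose, 265 fell), and edgeR's quasi-likelihood test 203. Of the 215, DESeq2 called 215, edgeR 199 and array weights 214. Leaving out 1 library gave 105 to 286 calls, with 70 to 162 rising and 35 to 124 falling, lowest without ozone 16 and highest without ozone 15. The counts fell by over 1.5 times without air 2 (116), air 3 (128), air 4 (116), air 7 (116), ozone 13 (141), ozone 14 (128) and ozone 16 (105). Each such fit has fewer libraries. Without the 3 libraries highest in Alb, 62 genes fell, in a fit with fewer libraries. Without the 3 lowest in fibroblast markers (3 ozone libraries left) 80 were called (57 rose, 23 fell). Log2 Alb as a covariate gave 310 calls. All 3 were chosen after seeing the data, as was leaving out ozone 15 and air 1 (224 calls). Other pseudocounts, minimum values and scalings gave 204 to 215, and no robust moderation 216. For 88 called genes followed singly, 1947 of 2283 alternative values kept the call, 336 lost it and 0 reversed.

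Differences from other tissues numbered 198, and 511 with lung alone as the other tissue, which tests another contrast over other genes. No paired analysis was possible for ozone against air because the groups share no library numbers. Over tissues, the replicate block gave 199 differences, with a correlation of 0.00236 between libraries of the same number. At 9162216 to 13529752 reads, genes under a mean of 10 were not tested.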
